A study of Drosophila melanogaster with 2 samples.

Results

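The Hox genes of the fly and the noncoding RNA gene of the bithorax complex were examined in open chromatin maps of naïve mushroom body (MB) nuclei. The 9 genes were lab, pb, Dfd, Scr and Antp of the Antennapedia complex and Ubx, abd-A, Abd-B and lncRNA:bxd of the bithorax complex, out of 18277 annotated genes. Their peaks were chosen by position, as every peak that overlapped a gene span or the 10 kb on either side of it, which gave 45 of 13868 peaks in replicate 1 and 44 of 14583 in replicate 2 (44.5 ± 0.707, SD, n = 2). The genes themselves were chosen from the same peak lists, because strong peaks at pb and inside lncRNA:bxd had already been seen, so the levels below are a description and none of them was tested. Of the 11705 consensus peaks, which are merged regions with a peak from both replicates, 40 lay in these windows and no peak lay in more than 1 of them.

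Hox genes encode homeodomain transcription factors that give body segments their identity along the head-to-tail axis, and they lie on the chromosome in nearly the order in which they act. Their states are kept through cell divisions by Polycomb group proteins, which repress, and trithorax group proteins, which keep genes active, and both act through Polycomb response elements, DNA stretches that often hold sites for GAGA factor and for Pho. The noncoding transcripts called bxd arise upstream of Ubx, from a region whose regulatory DNA controls Ubx in the embryo.

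Chromatin accessibility was measured by ATAC-seq, in which the Tn5 transposase cuts and tags open DNA. Both libraries came from Naive flies and Mushroom body nuclei, each from a pool of 50 to 60 heads. The flies carried w*;UAS-Unc84::2xGFP/+;R14H06-Gal4/+, and the methods describe males collected at the time point 1 h after training began. The R14H06-Gal4 driver marks Kenyon cells of the MB with a GFP-tagged nuclear envelope protein, and nuclei were pulled from head homogenate with anti-GFP beads, so the nuclei obtained are those that carry the tag plus any carried along. There was 1 group of 2 replicates and no comparison group, and the study's methods describe the replicates as independent.

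The values are fold enrichments at the summit of a peak, the pileup of fragments or cut sites divided by a local background that the peak caller took from the same library. The median summit pileup over all peaks was 219 in replicate 1 and 216 in replicate 2, and brackets give exact 95% Poisson bounds for the pileup with the background held fixed, so they cover counting error only. A peak within 500 bp of an annotated transcription start site (TSS) is called a TSS peak and any other peak is distal. In a pool of nuclei, a site open in more nuclei and a site cut more often per nucleus cannot be told apart. Of the Kenyon cell markers 11 of 11 had a TSS peak in each replicate, against 2 of 4 glia markers and 0 of the 3 photoreceptor, 3 fat body, 3 muscle and 2 hemocyte markers. The photoreceptor marker trp and the hemocyte marker Hml had one in replicate 2 only, of 1.37-fold and 1.47-fold. Of all protein-coding genes 55.9% had one in both replicates.

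The DNA under the strongest distal peaks is shown first, since they include the strongest peak of either complex. Each window is the mean summit with 100 bp on either side in the dm6 reference (RefSeq), plus strand, and free of annotated exons. Capitals mark GAGAG, the core letters of a GAGA factor site, and GCCAT, the core letters of a Pho site, on either strand (as CTCTC or ATGGC on the other), with overlapping matches run together. The windows are the intron of lncRNA:bxd (chr3R:16764002-16764202), the intron of Ubx (chr3R:16702942-16703142), the intron of abd-A (chr3R:16811883-16812083) and, from the stretch between abd-A and Abd-B, chr3R:16869432-16869632 and chr3R:16882586-16882786.
lncRNA:bxd intron: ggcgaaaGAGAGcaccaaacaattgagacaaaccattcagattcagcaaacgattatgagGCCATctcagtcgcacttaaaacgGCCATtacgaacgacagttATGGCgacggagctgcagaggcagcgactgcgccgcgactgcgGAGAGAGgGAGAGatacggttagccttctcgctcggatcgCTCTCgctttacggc
Ubx intron: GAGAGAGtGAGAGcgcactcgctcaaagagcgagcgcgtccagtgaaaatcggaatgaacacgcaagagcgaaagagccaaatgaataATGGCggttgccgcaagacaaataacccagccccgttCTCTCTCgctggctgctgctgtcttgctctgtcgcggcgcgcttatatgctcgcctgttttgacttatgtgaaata
abd-A intron: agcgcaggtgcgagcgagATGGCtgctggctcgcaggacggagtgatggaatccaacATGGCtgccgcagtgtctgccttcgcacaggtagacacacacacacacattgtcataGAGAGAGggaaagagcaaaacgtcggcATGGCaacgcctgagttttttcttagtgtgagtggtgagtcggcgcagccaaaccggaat
abd-A to Abd-B, proximal to abd-A: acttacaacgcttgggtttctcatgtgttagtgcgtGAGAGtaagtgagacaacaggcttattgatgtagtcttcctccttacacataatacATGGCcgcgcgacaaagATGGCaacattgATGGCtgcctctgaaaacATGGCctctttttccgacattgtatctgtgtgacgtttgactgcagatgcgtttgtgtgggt
abd-A to Abd-B, proximal to Abd-B: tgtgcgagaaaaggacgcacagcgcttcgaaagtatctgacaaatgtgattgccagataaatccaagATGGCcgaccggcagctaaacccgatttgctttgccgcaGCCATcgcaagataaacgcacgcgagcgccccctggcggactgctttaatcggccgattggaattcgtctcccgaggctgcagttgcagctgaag
The lncRNA:bxd window held 5 matches of GAGAG and 3 of GCCAT, and the Ubx window 5 and 1. The abd-A window held 2 and 3. The window nearer abd-A held 1 GAGAG and 4 GCCAT, and the one nearer Abd-B held 0 GAGAG and 2 GCCAT.

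The 200 bp that precede the TSS are shown for 4 members that span the range of TSS peaks, from the gene with the highest to the gene with none, each read on the strand of its gene in dm6. These are pb (chr3R:6742064-6742263, minus), Dfd (chr3R:6791636-6791835, plus), abd-A (chr3R:16830050-16830249, minus) and Ubx (chr3R:16734427-16734626, minus), with the same letters in capitals.
pb: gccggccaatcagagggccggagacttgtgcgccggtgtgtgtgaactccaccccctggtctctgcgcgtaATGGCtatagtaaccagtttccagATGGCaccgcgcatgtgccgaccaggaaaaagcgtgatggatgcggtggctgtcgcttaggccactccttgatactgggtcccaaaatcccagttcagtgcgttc
Dfd: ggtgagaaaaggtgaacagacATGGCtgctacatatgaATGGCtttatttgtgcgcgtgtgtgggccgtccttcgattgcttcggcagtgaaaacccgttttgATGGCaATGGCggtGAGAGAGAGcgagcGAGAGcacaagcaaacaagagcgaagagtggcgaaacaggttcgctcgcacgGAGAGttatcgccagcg
abd-A: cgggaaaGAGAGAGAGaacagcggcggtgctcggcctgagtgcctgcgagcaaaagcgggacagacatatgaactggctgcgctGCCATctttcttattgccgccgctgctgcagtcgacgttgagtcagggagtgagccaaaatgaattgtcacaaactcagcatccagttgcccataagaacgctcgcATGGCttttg
Ubx: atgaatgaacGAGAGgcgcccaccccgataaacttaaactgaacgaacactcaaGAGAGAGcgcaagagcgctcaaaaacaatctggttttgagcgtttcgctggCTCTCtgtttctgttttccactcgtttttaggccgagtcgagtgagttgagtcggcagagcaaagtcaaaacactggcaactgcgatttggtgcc
The stretch before pb held 0 matches of GAGAG and 2 of GCCAT, and that before Dfd 5 and 4. The stretch before abd-A held 3 and 2. The stretch before Ubx held 4 GAGAG and 0 GCCAT, and no peak lay over it, so these letters were present before a TSS without a peak as well as before TSSs with one. Of the 19253 stretches of this length before protein-coding TSSs, 25.3% held GAGAG and 29.7% held GCCAT.

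Of the 9 members, 7 had a TSS peak in each replicate, while Ubx and lncRNA:bxd had none. Over the whole annotation, 55.9% of protein-coding genes and 26.7% of noncoding RNA genes had a TSS peak in both replicates, so having one is common. The members were annotated with 22 TSS positions, and 11 of these had a peak within 500 bp in both replicates. The abd-A peak counted for both chr3R:16830049 and chr3R:16829752, so these are not all separate peaks. The share over all annotated TSS positions was not computed, so this count cannot be called high or low.

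Proboscipedia (pb, FBgn0051481, chr3R:6707800-6742063), which specifies the mouthparts, had a TSS peak of 8.06-fold (7.46 to 8.69) in replicate 1 and 7.78-fold (7.21 to 8.38) in replicate 2. It ranked 1 of 7997 protein-coding genes with a TSS peak in replicate 1 and 2 of 7995 in replicate 2, at pileups of 675 and 696. The replicates lay within each other's intervals (7.92 ± 0.198, SD, n = 2). No other member's TSS peak reached this level. Its strongest distal peak, in an intron (chr3R:6708360-6709107), was 1.92-fold and 1.79-fold, percentiles 47.5 and 45.8 of all peaks, and was the weakest such peak among the members with a consensus distal peak.

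Abdominal-B (Abd-B, FBgn0000015, chr3R:16927212-16972236), the Hox gene of the posterior abdomen, had TSS peaks at 3 of its 6 annotated TSS positions. The strongest, at the most downstream position (chr3R:16934242), was 6.57-fold (6.05 to 7.12) in replicate 1 and 6.79-fold (6.27 to 7.35) in replicate 2, and ranked 25 and 14 among protein-coding genes. The most upstream position (chr3R:16972236) lay 177 and 248 bp from a peak of 3.21-fold and 3.34-fold. The position at chr3R:16960281 had the lowest TSS peak of the members, 1.91-fold (1.62 to 2.23) and 1.42-fold (1.18 to 1.69). So the TSS peaks of this gene differed by more than their counting error.

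Deformed (Dfd, FBgn0000439, chr3R:6791836-6802428), which specifies the mandibular and maxillary segments, had a single TSS with a peak of 5.35-fold (4.87 to 5.87) and 5.10-fold (4.64 to 5.59). It ranked 160 and 165. Sex combs reduced (Scr, FBgn0003339, chr3R:6823120-6849981), which acts in the labial and the first thoracic segment, had a peak at each of its TSS positions. The upstream TSS (chr3R:6849981) was at 3.64-fold and 3.32-fold and the downstream TSS (chr3R:6848505) at 3.50-fold and 3.49-fold, and all 4 intervals overlapped.

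Antennapedia (Antp, FBgn0260642, chr3R:6896253-6999228), which specifies thoracic identity, had a TSS peak at 1 of 3 positions (chr3R:6958370) of 3.60-fold (3.21 to 4.03) and 3.39-fold (3.02 to 3.80). This TSS window is shared with the annotated gene CG46458, and its reads cannot be told apart between them. The most upstream Antp TSS (chr3R:6999228) had no peak within 500 bp, and the nearest peak lay 1325 bp and 1260 bp away, at 7.20-fold and 6.94-fold. That peak lay within 500 bp of the start of the noncoding gene lncRNA:CR45899 and covered this start in replicate 2 only. Counted by the most upstream TSS alone, Antp would therefore have no TSS peak.

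Abdominal-A (abd-A, FBgn0000014, chr3R:16807214-16830049), which acts in the anterior and middle abdomen, had a TSS peak of 3.28-fold (2.90 to 3.69) and 2.83-fold (2.50 to 3.2). The peak lay 21 and 23 bp upstream of its TSS and covered no annotated TSS of the gene. Labial (lab, FBgn0002522, chr3R:6661427-6678590), the most anterior Hox gene, had 3.10-fold (2.73 to 3.50) and 2.63-fold (2.31 to 2.99) at its upstream TSS (chr3R:6678590) and no peak at its other TSS.

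Ordered by mean level, the TSS peaks ran pb, Abd-B, Dfd, Scr, Antp, abd-A and lab, and the order was the same in both replicates. Scr and Antp differed by 0.0687 on average, less than the SD of Antp between replicates (0.147). The levels of abd-A and lab differed by 0.190, less than the SD of lab (0.329), while the other neighbours differed by more than either SD. Taken within each replicate, abd-A exceeded lab by 0.179 and 0.201 (SD of the difference 0.0156). Likewise Scr exceeded Antp by 0.0394 and 0.0980 (SD 0.0414). Both differences thus had the same sign in each replicate, but the counting intervals of each pair overlapped. Among protein-coding genes with a TSS peak, the mean percentiles were 98.0 ± 0.0269 for Dfd, 77.7 ± 0.527 for Scr, 75.9 ± 0.791 for Antp, 61.0 ± 7.15 for abd-A and 54.8 ± 8.06 for lab. Over all 9 members, with the 2 without a peak set to 0, the median percentile was 75.9, against 13.0 over all protein-coding genes counted the same way. By summit pileup in place of fold enrichment the percentiles were lower: 91.4 for pb, 85.8 for Abd-B, 68.0 for Dfd, 52.3 for Scr, 39.0 for Antp, 29.5 for abd-A and 25.2 for lab.

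**Figure D1:**
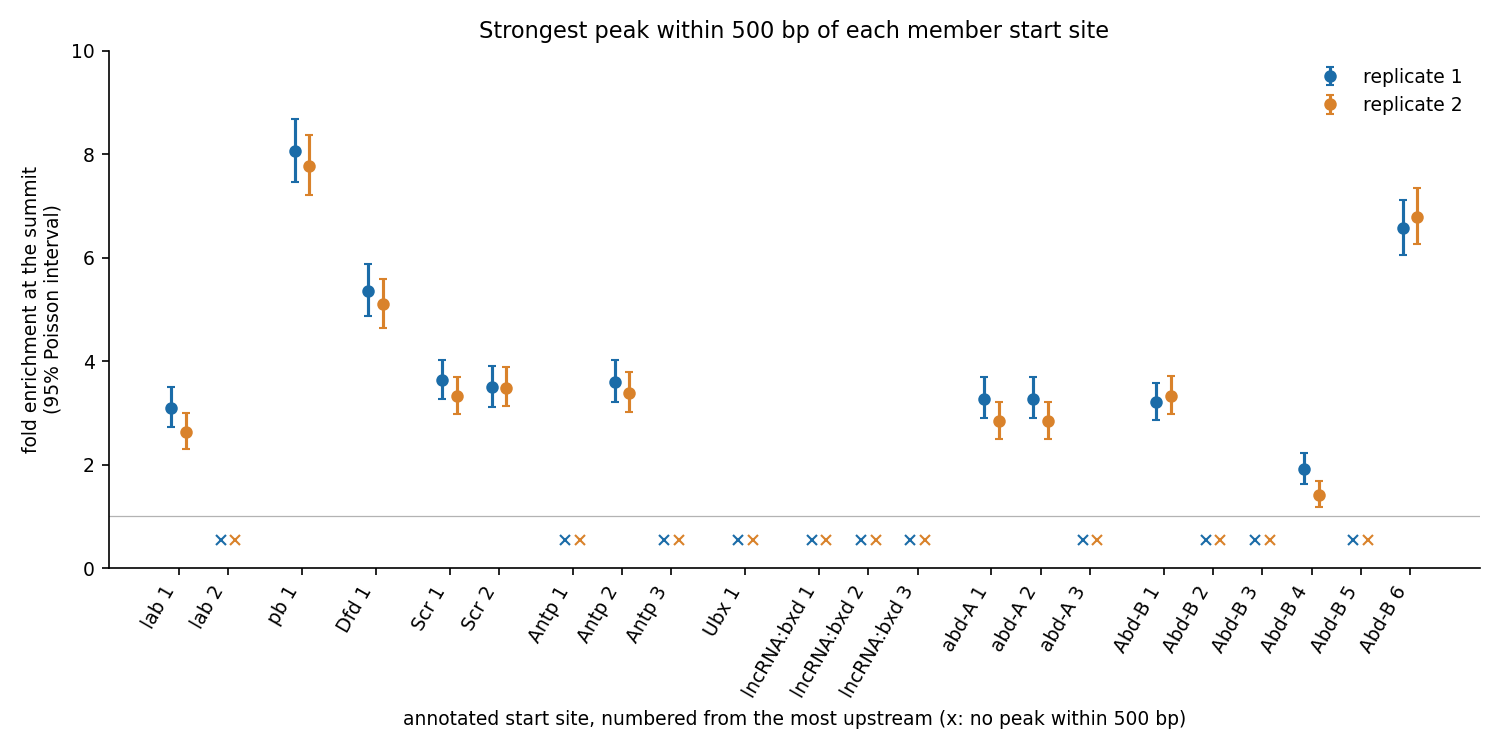
Fold enrichment at the summit (y axis, no units) of the strongest peak within 500 bp of each of the 22 annotated TSS positions of the 9 members, numbered from the most upstream in each gene, with points for replicate 1 (blue) and replicate 2 (orange) and bars for exact Poisson 95% intervals. Crosses mark TSS positions with no peak: pb is highest at 8.06 and 7.78, and Ubx and lncRNA:bxd have crosses at every TSS.

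Ubx (FBgn0003944, chr3R:16656623-16734426), which specifies the third thoracic segment and the haltere, had no peak at its single annotated TSS (chr3R:16734426). The nearest peak lay 14492 bp away in replicate 1, a weak peak of 1.5-fold that replicate 2 lacked, and 29105 bp away in replicate 2, where the nearest was the lncRNA:bxd intron peak. The 3 annotated TSS positions of lncRNA:bxd (FBgn0020556, chr3R:16742125-16773189) had no peak within 2532 bp in replicate 1 or within 8817 bp in replicate 2. A missing call here means that no enrichment passed the threshold of the authors' caller, and the deposited lists give no value for it.

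The window of Ubx held 1 strong peak, that of its intron, and 4 weaker peak regions of 1.34-fold to 2.60-fold in replicate 1 at its downstream end, of which 3 were at the TSS of other genes. The consensus peak of its intron lay between 2 stretches free of peaks in either replicate, of 45.974 kb (chr3R:16656769-16702742) and 45.222 kb (chr3R:16703696-16748917), the latter of which holds the Ubx TSS. These ranked at percentiles 98.2 and 98.1 of all such gaps on the 5 large chromosome arms, where the median gap was 3667.5 bp. Further gaps were 34.164 kb inside and beyond lncRNA:bxd and 32.283 kb inside pb. In the complexes 8 of 57 gaps exceeded 20 kb, against 7.36% on the arms.

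Some distal peaks in the bithorax complex, 6 of 19 in replicate 1 and 6 of 16 in replicate 2, were at or above the 95th percentile of all peaks, and others were weak, down to percentile 2.01 in replicate 1. The peak in the lncRNA:bxd intron (chr3R:16763501-16764372), 9087 bp from its nearest TSS, was 8.94-fold (8.31 to 9.6) in replicate 1 and 7.90-fold in replicate 2, at pileups of 749 and 707 and at percentile 99.98 of all peaks in both. The peak in the Ubx intron (chr3R:16702743-16703695), 31384 bp from the Ubx TSS, was 6.27-fold and 5.75-fold, percentiles 99.6 and 99.4. The abd-A intron peak (chr3R:16811675-16812405) was 4.72-fold and 4.62-fold, and the strongest distal Abd-B peak (chr3R:16969380-16970511), also in an intron, was 4.6-fold and 4.52-fold.

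Outside the 10 kb windows, 2 further distal peaks of the stretch between abd-A and Abd-B were as strong, and they were singled out after their values were seen. They measured 5.46-fold and 4.56-fold (chr3R:16868791-16870014) and 5.55-fold (5.06 to 6.08) and 4.53-fold (4.10 to 4.99) (chr3R:16882424-16882944), the latter pair apart by more than counting error. In each replicate, 6 distal peaks of the bithorax complex passed the 95th percentile of all peaks and none of the Antennapedia complex did, that is 6 of the 31 and 6 of the 29 distal peaks of both complexes, where 1.54% and 1.60% of all distal peaks passed it. TSS peaks of the complexes, at members or other genes, passed it 6 of 25 times in each replicate, against 8.32% and 8.48% of all TSS peaks. Of the 8 protein-coding members, 3 (Ubx, abd-A and Abd-B) had such a distal peak in their window by the mean of the replicates, against 1.24% of protein-coding genes. These 3 genes span 77.8, 22.8 and 45.0 kb. A longer window has more room for such a peak, and the share was not matched for window length.

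In the Antennapedia complex the strongest distal peak lay in an Antp intron (chr3R:6911770-6913382) at 4.02-fold and 3.35-fold, percentiles 92.1 and 86.1. The strongest distal peak of Scr (chr3R:6854191-6855001) was 2.77-fold and 2.37-fold, and that of lab (chr3R:6683310-6683444) 2.42-fold and 1.93-fold. Dfd had no distal peak in replicate 1 and 1 of 1.57-fold in replicate 2. The 2 peak classes did not go together in a single way: pb and Dfd had strong TSS peaks with weak or no distal peaks, Abd-B and abd-A had a TSS peak and a distal peak at mean percentiles 96.4 and 96.9, and Ubx and lncRNA:bxd had strong distal peaks and no TSS peak.

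**Figure D2:**
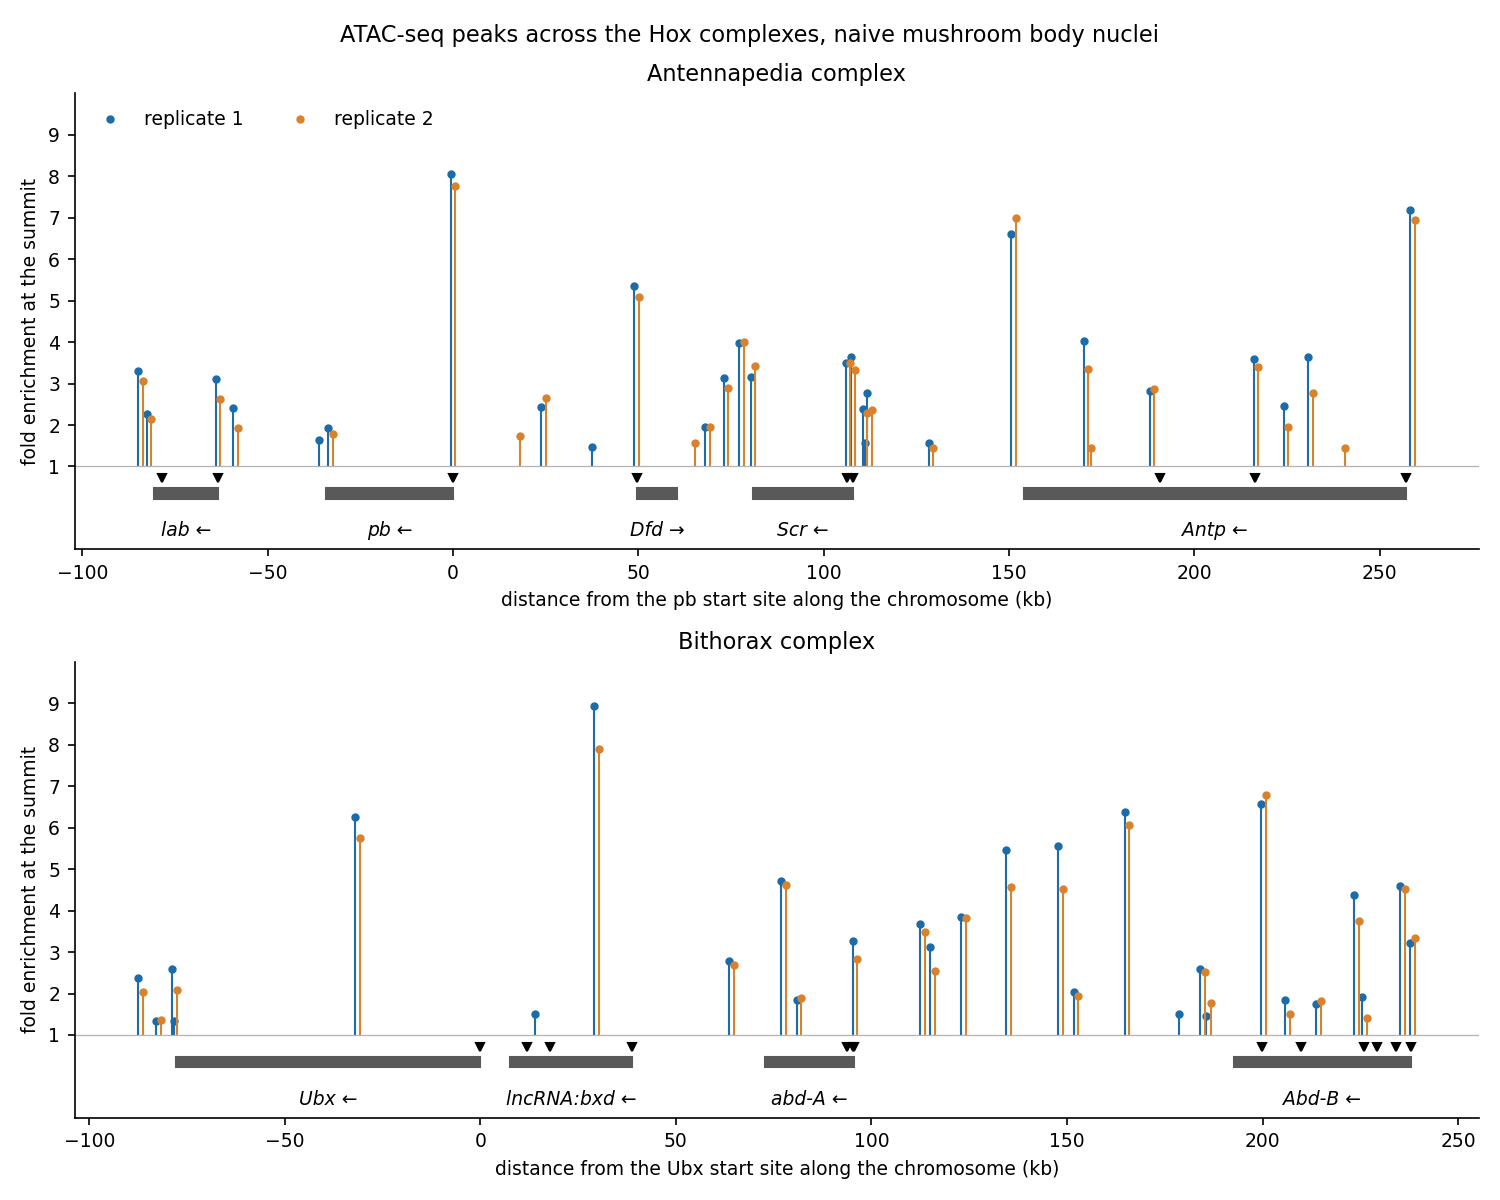
Summit fold enrichment (y axis) of every peak in both complexes against distance along the chromosome from the pb TSS (upper panel) or the Ubx TSS (lower panel) in kb, with replicate 1 in blue and replicate 2 in orange. Grey bars are gene spans with the direction of transcription, black triangles are annotated TSS positions, and the tallest stems are pb at 8.06 and 7.78 and the lncRNA:bxd intron at 8.94 and 7.90.

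Over both complexes, TSS peaks had a median percentile of 80.9 ± 0.402 among all peaks (SD, n = 2), against 68.3 ± 0.290 over all TSS peaks. These are TSS peaks of any gene in the complexes, so the median is not a level of Hox TSSs alone. Of the consensus peaks at a TSS, 10 lay at a member TSS and 14 at that of another gene. Distal peaks had a median of 65.0 ± 1.39, against 32.4 ± 0.613 over all distal peaks. On this scale TSS peaks of the complexes were higher than distal peaks, as over the genome, and the medians of both classes lay above those of all peaks, that of the distal class by more. The split differed between complexes: the distal median was 62.7 and 52.1 in the Antennapedia complex and 72.5 and 89.7 in the bithorax complex. In the bithorax complex the medians of TSS peaks, 73.5 and 70.7, lay above the distal median in replicate 1 and below it in replicate 2.

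The background differed as well. The lowest background of a library (within 0.01) was the denominator for 31.6% and 30.9% of all peaks, against 62.2% and 65.9% of the peaks in the member windows and 67.9% and 70.4% of those in the complexes. Among distal peaks with this background, which share a denominator, the median percentile in the complexes was 65.8 and 66.0, against 30.1 and 32.0 over the genome, with median pileups of 210.5 and 211 against 133 and 140. Ranked by pileup, the median of TSS peaks in the complexes was at percentile 66.4 and 70.6, against 68.5 and 69.0 over all TSS peaks. By pileup it was thus lower in replicate 1 and higher in replicate 2, while by fold enrichment it was higher in both. The median of distal peaks by pileup was 49.3 and 52.3, against 29.4 and 30.5 over all distal peaks. The median pileup of TSS peaks in the bithorax complex was 267.5 and 253, against 317 and 310 over all TSS peaks.

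**Figure D3:**
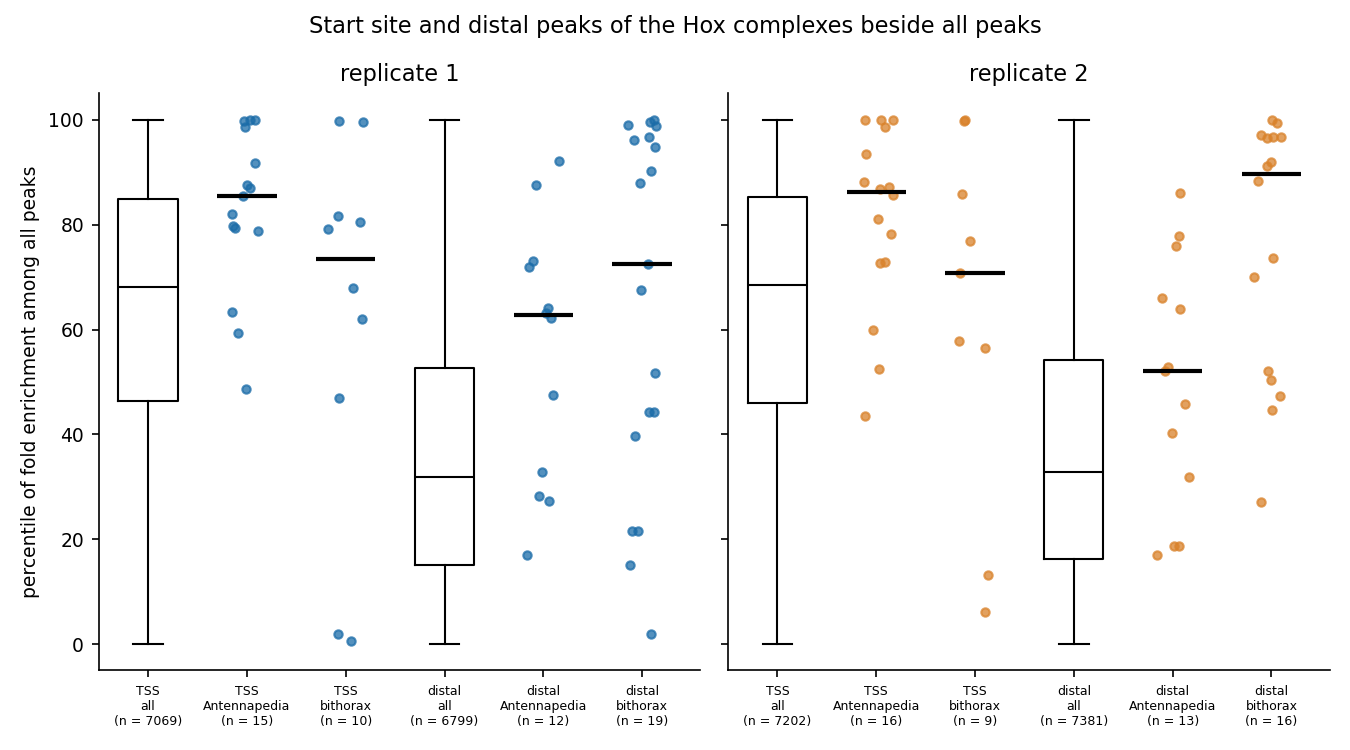
Percentile of fold enrichment among all peaks of the replicate (y axis) for TSS and distal peaks: boxes show the median, quartiles and range without outliers over all peaks, and dots show single peaks of the Antennapedia and bithorax complexes with a line at the median. The distal medians are 62.7 and 52.1 in the Antennapedia complex and 72.5 and 89.7 in the bithorax complex.

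Both complexes held fewer consensus peaks per length than the arm they lie on, but the bithorax complex did not hold fewer distal ones. The Antennapedia complex (357.802 kb) held 24 consensus peaks, 6.71 per 100 kb, and the bithorax complex (335.614 kb) held 25, 7.45 per 100 kb, against 9.35 on arm 3R and 8.72 on the 5 large arms. Peaks covered 5.23% and 5.06% of the Antennapedia complex and 5.09% and 4.66% of the bithorax complex, against 9.24% and 9.41% of 3R. Distal consensus peaks numbered 2.52 per 100 kb in the Antennapedia complex and 4.77 in the bithorax complex, against 4.22 on 3R and 3.72 on the 5 large arms. Of the Antennapedia consensus peaks 37.5% were distal, of the bithorax peaks 64.0%, and of all on 3R 45.1%. Of the 40 consensus peaks in member windows, 10 lay at a member TSS, 11 at the TSS of another gene and 19 were distal, 15 of these in introns and 4 between genes.

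Other genes within the complexes shared the windows with the members. Of 45 other genes in the Antennapedia complex 14 had a TSS peak called in both replicates, and of 21 in the bithorax complex 6 did. Over the annotation 55.9% of protein-coding and 26.7% of noncoding RNA genes did, and the mix of gene types here was not matched. Some neighbours shared a single peak, such as CG1307 with twr and CG10324 with CCT3, so these are not all separate peaks. The Hox-derived genes zen, zen2 and ftz, used in the early embryo, had none, and bcd, the maternal head determinant, had a peak of 1.74-fold in replicate 2 only. The cuticle protein genes of the Ccp84 cluster and Edg84A had none either. The strongest were noncoding genes: lncRNA:CR45899 at 7.20-fold and 6.94-fold and lncRNA:CR45559 at 6.6-fold and 7.0-fold beside Antp, and lncRNA:iab8 at 6.38-fold and 6.06-fold between abd-A and Abd-B. On the opposite strand, the overlapping lncRNA:iab4 had 3.12-fold and 2.54-fold.

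The replicates ordered these peaks alike. Of the peaks in the member windows, 91.1% in replicate 1 and 93.2% in replicate 2 overlapped a peak of the other, against 87.4% and 83.6% of all peaks. Fold enrichment was higher in replicate 1 for 38 of the 49 consensus peaks of the complexes, against 62.1% of all consensus peaks. The Spearman correlation of fold enrichment over the 49 consensus peaks of the complexes was 0.976, a description across peaks of the same pair of libraries, and the median distance between summits was 16 bp. In member windows 7 regions had a peak in 1 replicate only, the strongest 1.63-fold in replicate 1 (chr3R:6706377-6706611, beside pb), and the highest percentile among them was 32.8.

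**Figure D4:**
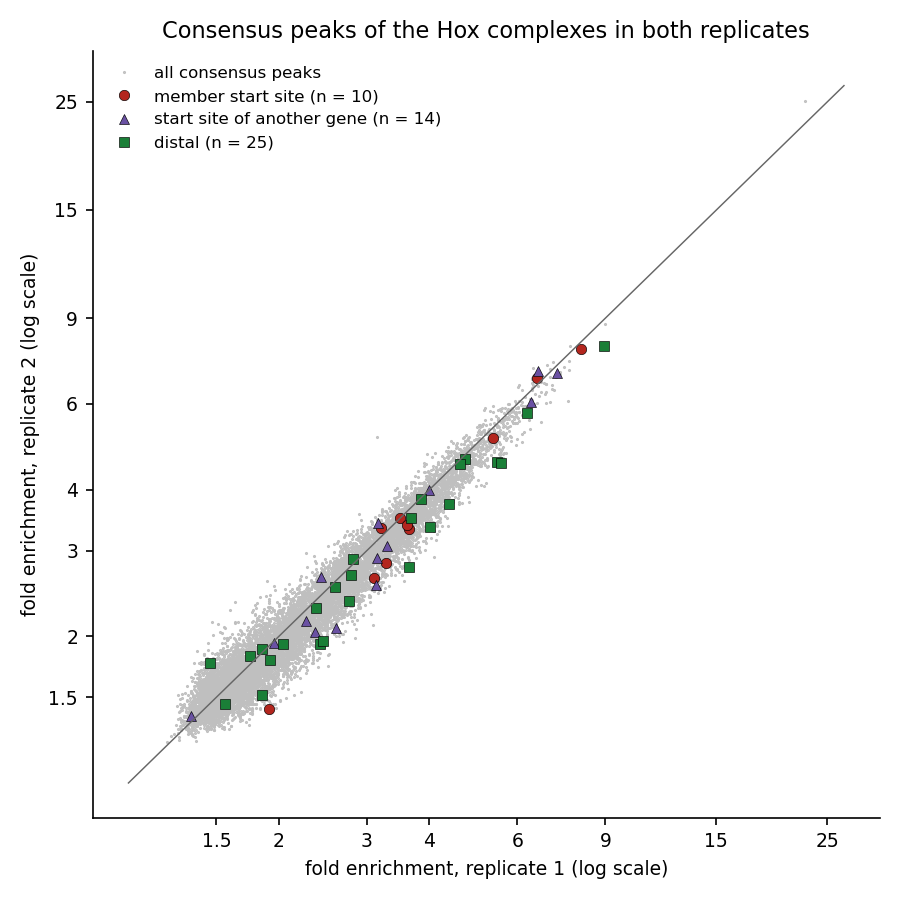
Fold enrichment in replicate 1 (x axis, log scale) against replicate 2 (y axis, log scale) for all 11705 consensus peaks (grey) and the 49 of the Hox complexes by class, with a line of equality. The 10 member TSS peaks (circles), 14 TSS peaks of other genes (triangles) and 25 distal peaks (squares) lie along the line, 38 of the 49 on the side of replicate 1, with the lncRNA:bxd intron peak farthest out at 8.94 and 7.90.

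Motifs were counted as exact letters within 100 bp of the summit on either strand, and a match is a description of the DNA, not a bound site. GAGAG occurred in 60.0% of the 40 member consensus peaks, against 34.1% of all consensus peaks, and GCCAT in 62.5% against 36.8%. Both occurred in 42.5%, against 11.6%. The letters AGNNGGCGC, part of a CTCF site, occurred in 7.50% against 3.72%, and TGATTNAT, which Exd binds together with a Hox protein, in 7.50% against 2.92%, 3 windows each. Median GC content was 49.3% against 48.3%.

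The 25 distal consensus peaks of the complexes had GAGAG in 60.0% (34.3% of all distal consensus peaks), GCCAT in 76.0% (42.4%), and both in 52.0% (14.0%). AGNNGGCGC occurred in 5 of the 25, and in 200 of 5003 distal consensus peaks. At 3 or more matches the shares were 28.0% for GAGAG against 9.31%, and 28.0% for GCCAT against 3.82%. Of the 6 distal consensus peaks past the 95th percentile, 4 held GAGAG and 6 held GCCAT. Over all 106 distal consensus peaks past it, GAGAG occurred in 59.4% and GCCAT in 41.5%. The 24 TSS consensus peaks of the complexes held no AGNNGGCGC. With 3.72% of all consensus peaks holding it, a set this small can easily hold none.

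Genes that act with or on the Hox genes had TSS peaks throughout. Of the Hox cofactors exd and hth, whose proteins bind DNA together with Hox proteins, both had a TSS peak in both replicates, hth at percentile 97.7 of protein-coding genes with a TSS peak (4.97-fold and 5.37-fold) and exd at 61.8. All 22 Polycomb group genes had one, from 18.4 for Sce to 98.6 for jing, with a median of 63.1. All 22 trithorax group and bithorax regulator genes had one, from 9.18 for kto to 95.3 for mor, with a median of 50.8. The share of protein-coding genes with such a peak was 55.9%, and Kenyon cell markers had a median of 89.3. Among these, Pc itself was at 31.9 ± 5.23, pho at 81.0 ± 2.19 and Trl, the GAGA factor gene, at 35.2 ± 1.06.

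**Figure D5:**
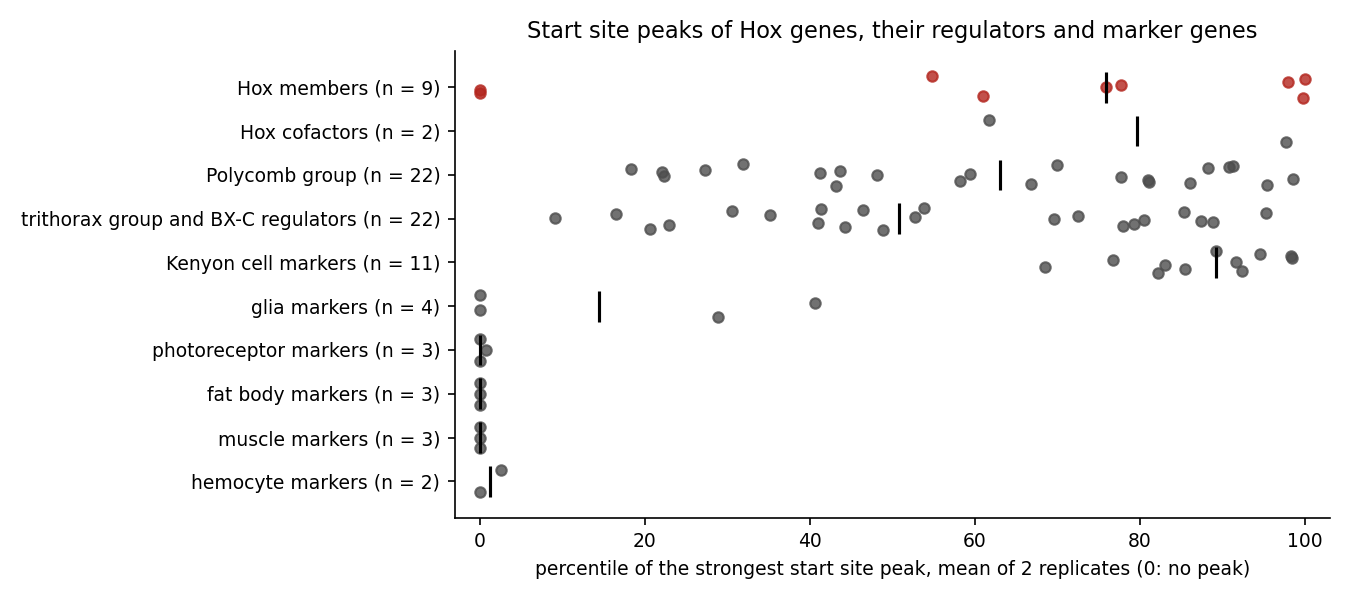
Percentile of the strongest TSS peak among protein-coding genes with one (x axis, mean of both replicates, 0 where no peak) for each gene, by list (y axis), with a vertical line at the median of the list. The Hox members run from 0 (Ubx and lncRNA:bxd) to pb near 100, the Polycomb group has a median of 63.1, and the Kenyon cell markers one of 89.3.

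The genes most like pb and Ubx were found by Euclidean distance over 3 percentiles, of the strongest TSS peak, the strongest distal peak and the density of consensus peaks in the window, over 13945 protein-coding genes and the mean of both replicates. For pb these were Fili (distance 1.76), robo2 (4.83) and Mnr (6.16), and for Ubx they were Ref2 (2.38), CG1428 (2.81) and CG1077 (3.46). For Ubx the density of peaks per kb was at percentile 12.3 of genes and for pb at 11.2.

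The windows set the counts. Measured to the nearest member TSS, the farthest peak counted as a TSS peak lay 177 bp (3.21-fold) and 248 bp (3.34-fold) away, both at Abd-B. The nearest outside lay 806 bp (4.6-fold) and 947 bp (4.52-fold) away, also at Abd-B. The abd-A peak also counted for a second abd-A TSS (chr3R:16829752), 318 and 320 bp away. The farthest peak inside the 10 kb flank lay 8248 bp (2.36-fold) and 8230 bp (2.05-fold) from its gene, and the nearest outside 11544 bp (1.47-fold) and 12311 bp (1.68-fold).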

How the data were processed

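According to the study's methods and the submitters' processing notes, the authors trimmed reads with Trimmomatic 0.39, aligned them with Bowtie2 2.4.1 to dm6, shifted them for the Tn5 offset, removed duplicate, multi-mapped and mitochondrial reads, and called peaks with MACS2 2.1.2 in each replicate separately. The deposited lists give fold enrichment (a ratio of pileup to background), the −log10 p-value and −log10 q-value of the summit, and its offset. The deposited score, made from the −log10 q, was not used. No read totals were used. The peak names inside the deposited lists carry a clock-time tag that the labels do not explain.

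Pileup and background were solved from fold enrichment (pseudocount 1) and the Poisson p-value, which was tested on simulated data. Peaks sharing at least 1 bp were merged across replicates. Genes and TSSs came from the Ensembl release 115 annotation and sequences from the RefSeq dm6 genome, whose chromosome lengths held every peak. The complexes run from the lowest to the highest base of their members plus 10 kb. Percentiles give the share of values below the one named. With 1 group and 2 replicates no test was run. Python 3.11.15, numpy 2.4.6, pandas 2.3.3 and scipy 1.17.1 were used. calypso was found under the symbol caly.

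All 9 members are named with their strongest TSS and distal peaks, as are the strongest member peaks, other genes of the complexes by whether a TSS peak was called, and the extremes of each gene list. The members, gene lists and motifs were chosen with earlier results of these data known.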

Additional observations from a re-analysis of the deposited data

How the results depend on the processing

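The counts and levels were recomputed 130 times under other settings, of which 86 stayed near the value reported and 44 did not. Near meant within 1.5 times for counts and densities, and within the SD between replicates for percentiles. With 2 replicates, leaving out a replicate cannot move a mean percentile by more than this SD. Those recomputations of percentiles were therefore near by construction and say nothing about stability. For motif shares it meant within the 95% Wilson interval of the reported share. Reversals of order were not scored. Leaving out a replicate gave 44.0 to 45.0 member peaks, 7.0 members with a TSS peak, and medians of 80.6 to 81.1 for TSS and 64.1 to 66.0 for distal peaks. Without the 10 kb flank there were 24.5 member peaks per replicate and 22.0 consensus peaks, as fewer bases were searched. The median of TSS peaks was 83.7 with a −log10 q of at least 5, 83.8 with a peak that covers the TSS, 83.7 within 1 kb, 77.1 ranked by −log10 q and 68.5 ranked by pileup. The distal median under the same settings was 73.1, 67.1, 63.6, 60.6 and 50.8. The strongest distal peak of the Antennapedia complex stood at percentile 80.3 by −log10 q and 69.1 by pileup, and that of the bithorax complex at 99.8 and 96.8. The share of member peaks with GCCAT was 40.0% within 50 bp of the summit and 80% within 200 bp. AGNNGGCGC occurred in 2.5% within 50 bp. TGATTNAT occurred in 0.0% within 50 bp and 22.5% within 200 bp, as these windows hold fewer or more bases. The shares over all consensus peaks were not computed at these lengths. Whether the difference from all peaks holds there was not tested. Of the 63 recomputed TSS percentiles of single members 23 moved by more than the SD. Those of Ubx and lncRNA:bxd are among the unmoved because neither gene had a TSS peak under any setting, so they say nothing about stability. Where the peak must cover the TSS, 5 members had one in both replicates: abd-A had none and Antp one in replicate 2 only. By the most upstream TSS alone Antp had none.

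No paired analysis was possible because there was 1 group and nothing to pair. The lists hold called peaks only, so a site without a peak has no value, and 2 replicates give a coarse SD. Relative to its level, a peak of low pileup has the wider counting interval. The cause of the differences between rankings was not tested.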
